A study of Mus musculus with 32 samples.

Results

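Canonical Notch effectors were followed in brain arteries of mice that lack Notch3 or carry a CADASIL mutation. They were 10 genes, Hes1, Hes5, Hey1, Hey2, Heyl, Nrarp, Rbpj, Maml1, Maml2, and Maml3, chosen by symbol, and all 10 were matched among the 55357 genes of the read count table. RNA from dissected brain arteries was sequenced for 32 mice in 4 groups of 8, each mouse as its own library. The 3-month groups were Notch3-/- mice, a line with an inactivated Notch3 gene, and Notch3+/+ mice. TgNotch3R169C mice, which carry a genomic transgene of rat Notch3 with the Arg-to-Cys mutation beside their own mouse gene, and transgene-free controls (WT) were aged 12 months. None was treated, and both lines had been backcrossed to C57BL/6. The transgene sits on the X chromosome, both sexes were used in this line, and which mouse was male or female is not in the labels. The 2 control groups differ in both line and age, and these cannot be told apart.

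In canonical Notch signaling, a ligand on a neighboring cell exposes the receptor to cleavage, and the freed intracellular domain moves to the nucleus. There it binds Rbpj, a DNA-binding protein that represses targets in its absence, and recruits a Mastermind-like coactivator (Maml1, Maml2, or Maml3) to switch those targets on. Typical targets are the Hes and Hey genes, which encode basic helix-loop-helix repressors, and Nrarp, which feeds back by destabilizing the intracellular domain. In arteries, NOTCH3 acts mainly in smooth muscle cells and pericytes, while other Notch receptors act in the endothelium, so an effector measured in whole arteries can come from several kinds of cell.

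Total counts per library ranged from 20289487 to 54481934, and levels are given as CPM, the counts relative to library sizes scaled by TMM. The 8 smooth muscle markers, which define the wall of arteries, summed to between 1093 and 4322 CPM, and none of the 8 was at 0 in any group. Markers of other cells were also present, among them 8 neuronal genes (226 to 1107 CPM in sum) and 7 choroid plexus genes (467 to 38687 CPM in sum). In bulk tissue, fewer cells of a type and less RNA per cell cannot be told apart.

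Notch3 itself separated the groups. At 3 months its level was 83.5 ± 11.7 CPM with the gene intact and 16.3 ± 1.82 CPM without it, and at 12 months it was 73.0 ± 8.16 CPM in WT and 181 ± 35.0 CPM in TgNotch3R169C arteries (mean ± SD, n = 8 each). The mutants of each line did not overlap with their controls. Notch3 was 0.194-fold the control level in Notch3-/- mice (log2 fold change −2.37, SE 0.0924, edgeR adjusted p = 1.39e-10) and 2.48-fold in TgNotch3R169C mice (log2 fold change 1.31, SE 0.115, edgeR adjusted p = 1.75e-05). The counts do not tell rat transgene reads from mouse reads, and reads that remain in Notch3-/- mice were counted over the whole gene. Across this range of receptor mRNA, none of the 10 effectors passed the test in either mutant. Few genes of any kind did, 0.649% of all genes tested in Notch3-/- and 0.113% in TgNotch3R169C mice. A count of 0 in 10 is near these shares and shows nothing particular to the effectors.

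**Figure D1:**
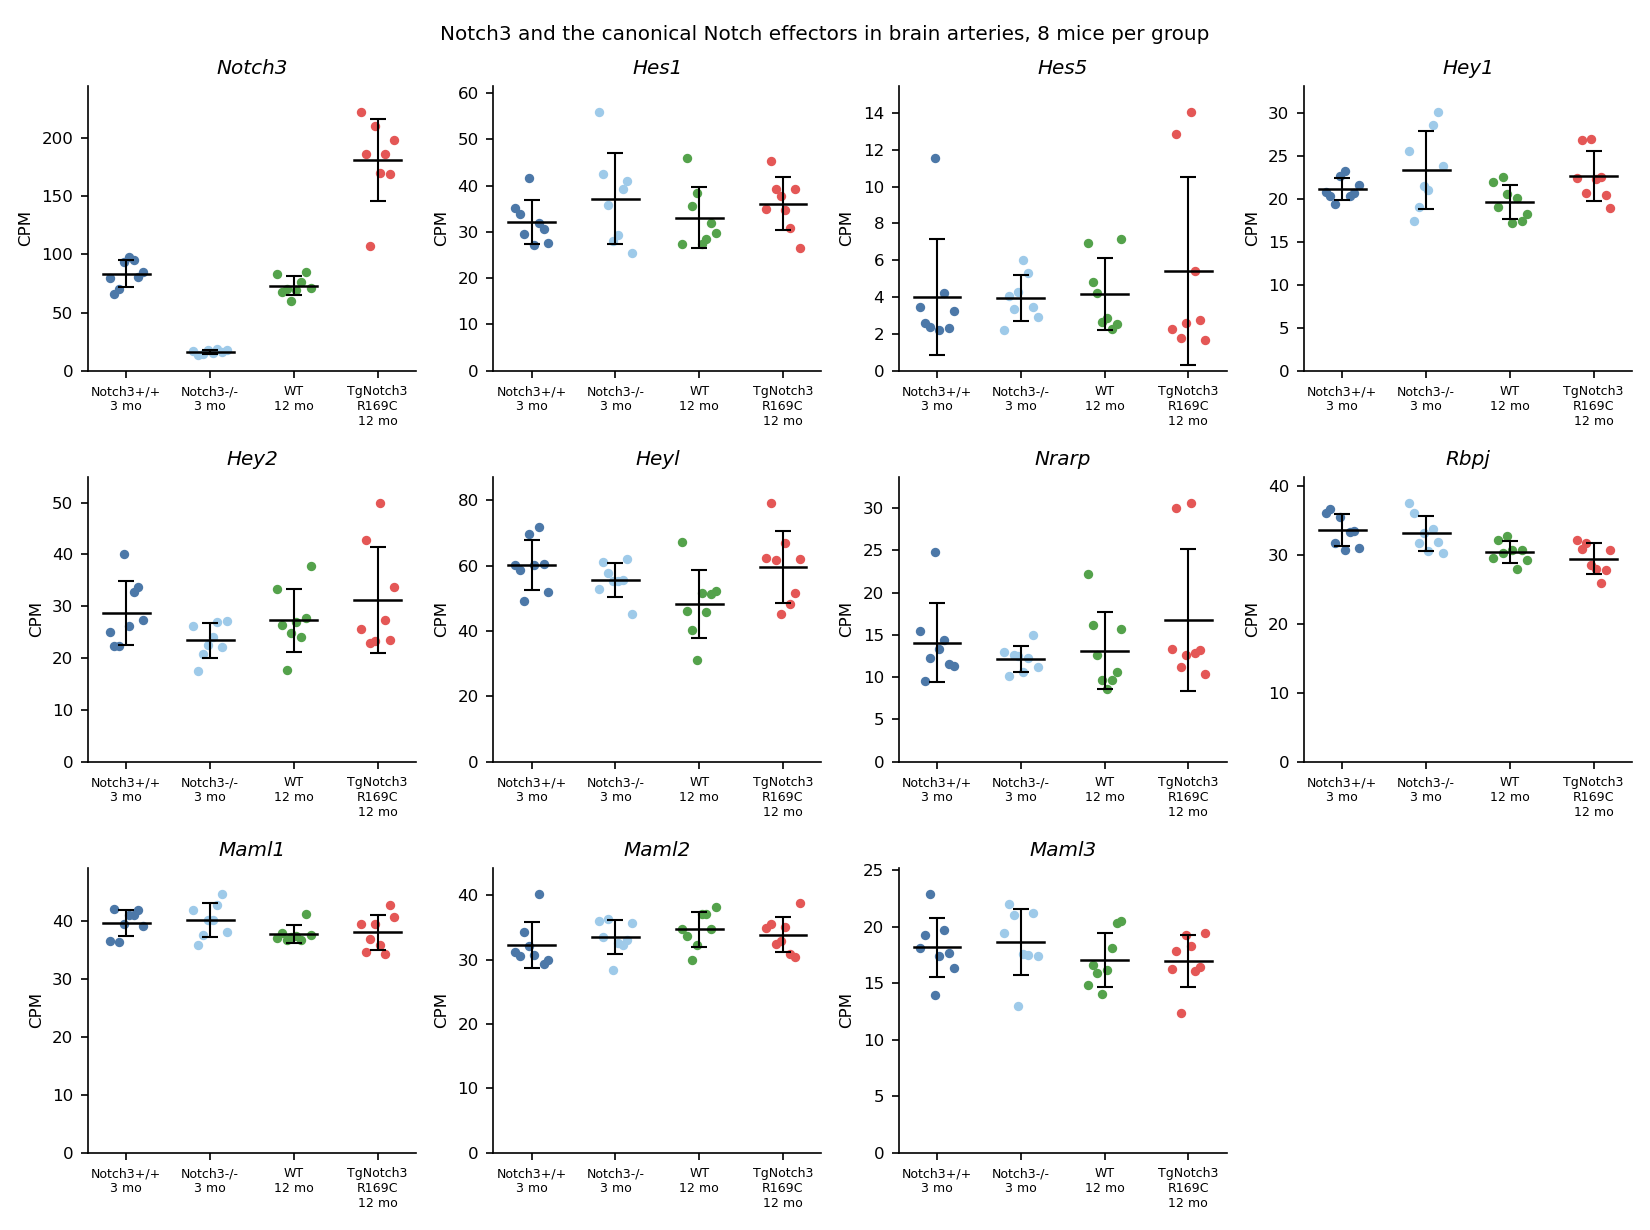
Level of Notch3 and each effector in every mouse, in CPM, by group (8 mice each; mo, months of age); each point is a mouse, and bars show the mean ± SD. Notch3 in mutants does not overlap with its controls. For each of the 10 effectors the mutant and control mice overlap, and the share of all genes that overlap was not computed.

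Levels can be compared between effectors only per length of transcript. In WT mice, Hes1 was the most abundant effector, at 16.3 ± 3.21 CPM per kilobase of exon, followed by Heyl at 9.44 ± 2.04, which was near Notch3 itself at 9.02 ± 1.01. Maml1, Hey1, Hey2, Maml2, and Nrarp lay between 5.09 and 6.84, and Hes5 lay at 3.07 ± 1.44. Rbpj (2.39 ± 0.121) and Maml3 (1.63 ± 0.229) were lowest, although the length used for Rbpj, 12750 bases, joins the exons of all its annotated transcripts. Hes1 and Heyl led in all 4 groups, and Hes5, Rbpj, and Maml3 were the last of the 10 in all 4. The effectors also differed in how much mice of a group varied. The coefficient of variation was 3.92% to 8.02% for Maml1 and 5.06% to 7.79% for Rbpj, but 31.8% to 93.8% for Hes5 and 12.4% to 50.2% for Nrarp.

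Rbpj and the coactivators of the nuclear complex differed little between mutants and controls. Rbpj ranged from 30.8 to 36.7 CPM (median 33.5) in Notch3+/+ mice and from 30.4 to 37.6 CPM (median 32.5) in Notch3-/- mice, and the groups overlapped almost entirely. Its log2 fold change in Notch3-/- mice was −0.026 (SE 0.0541, edgeR adjusted p = 0.974), with a 95% CI from 0.907- to 1.06-fold. In the 12-month groups, Rbpj ranged from 28.03 to 32.7 CPM (median 30.6) in WT mice and from 25.9 to 32.2 CPM (median 29.7) in TgNotch3R169C mice, a log2 fold change of −0.046 (SE 0.0493, edgeR adjusted p = 0.84) with a 95% CI from 0.901- to 1.04-fold. Rbpj has near-identical pseudogene copies, and 2 of them in the table held at most 16 counts in any library, against at least 608 for Rbpj. Reads that match several copies may not have been counted for Rbpj, which was not tested.

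Among the 3 Mastermind-like coactivators, Maml1 gave the narrowest intervals. Its level ranged from 36.4 to 42.1 CPM in Notch3+/+ mice and from 35.9 to 44.7 CPM in Notch3-/- mice, with a 95% CI of the ratio from 0.938- to 1.08-fold. In TgNotch3R169C mice its interval ran from 0.939- to 1.08-fold. Maml2 gave log2 fold changes of 0.045 in Notch3-/- mice and −0.035 in TgNotch3R169C mice, and Maml3 gave 0.028 and −0.00338 in the same order. The widest of their intervals, that of Maml3 in Notch3-/- mice, ran from 0.873- to 1.19-fold.

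Hey2 was the effector closest to the threshold in Notch3-/- mice. It is a repressor expressed in arterial smooth muscle and endothelium. Its level ranged from 22.3 to 40.05 CPM (median 26.8) in Notch3+/+ mice and from 17.4 to 27.1 CPM (median 23.4) in Notch3-/- mice. All 8 Notch3-/- mice lay below the mean of the controls, but only 3 lay below the lowest control. The log2 fold change was −0.30 (SE 0.125, unadjusted p = 0.0288, edgeR adjusted p = 0.561), or 0.813-fold with a 95% CI from 0.678 to 0.976.

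Heyl, a repressor of the same family, had a smaller change. It ranged from 49.3 to 71.8 CPM (median 60.2) in Notch3+/+ mice and from 45.3 to 62.0 CPM (median 55.5) in Notch3-/- mice. The log2 fold change was −0.12 (SE 0.0751, edgeR adjusted p = 0.809), with a 95% CI from 0.823- to 1.03-fold, so a loss as deep as that of Notch3 lies outside the interval. Hey1 and Hes1 lay on the other side of 0. Hey1 ranged from 19.4 to 23.3 CPM (median 20.8) in controls and from 17.4 to 30.2 CPM (median 22.7) in Notch3-/- mice (log2 fold change 0.14, SE 0.0981, edgeR adjusted p = 0.853). Hes1 ranged from 27.1 to 41.6 CPM (median 31.3) and from 25.5 to 55.9 CPM (median 37.6) in the same order (log2 fold change 0.20, SE 0.141, edgeR adjusted p = 0.845). For both genes the Notch3-/- mice extended above and below the range of the controls.

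Nrarp and Hes5 were less precisely measured, Hes5 from 51 to 538 counts per library. Nrarp ranged from 9.52 to 24.9 CPM (median 12.8) in Notch3+/+ mice and from 10.2 to 14.9 CPM (median 12.4) in Notch3-/- mice, and all 8 mutants lay within the range of the controls (log2 fold change −0.22, SE 0.156, edgeR adjusted p = 0.851). Without Notch3+/+ mouse 4, the highest control, it was −0.046. Hes5 was the least abundant in CPM, at 2.22 to 11.6 CPM (median 2.90) in controls and at most 6.03 CPM (median 3.76) in Notch3-/- mice, with the groups overlapping. Its log2 fold change of −0.017 (SE 0.330) had a 95% CI from 0.610- to 1.60-fold, and leaving out Notch3+/+ mouse 4 turned it to 0.44.

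In sum, 0 of 10 effectors were called by edgeR in Notch3-/- mice, where 0.649% of all 17714 genes tested were called. At an unadjusted p below 0.05, 1 of 10 passed, against 7.69% of all genes, and DESeq2 called 0 of 10, against 1.28%. That count was 0 in 5 of 16 fits that left out 1 mouse. The effectors had a median log2 fold change of −0.0044, with 5 above 0 and 5 below, beside −0.0011 for all genes. In the same 16 libraries, all 11 genes that the study used as Notch3 targets, such as Xirp1 (−2.04), Pln (−1.31), and Grip2 (−1.14), were called lower, with a median log2 fold change of −1.14. These 11 were named by the study as genes that depend on Notch3, so their direction is not independent evidence. Smooth muscle markers moved with them, since 6 of 8 were called lower (median log2 fold change −0.63), while Des, which encodes the muscle filament desmin, gave 0.28 (unadjusted p = 0.00655, edgeR adjusted p = 0.296). Their summed level ranged from 2439 to 4322 CPM in Notch3+/+ mice and from 1660 to 2581 CPM in Notch3-/- mice. With the smooth muscle level as a covariate, Hey2 turned to 0.14 and Heyl to 0.091 on the log2 scale, and all genes called went from 115 to 16. The sums of the 2 groups overlapped little, so this covariate is hard to tell apart from genotype. The part of the smooth muscle level in these values was not tested.

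**Figure D2:**
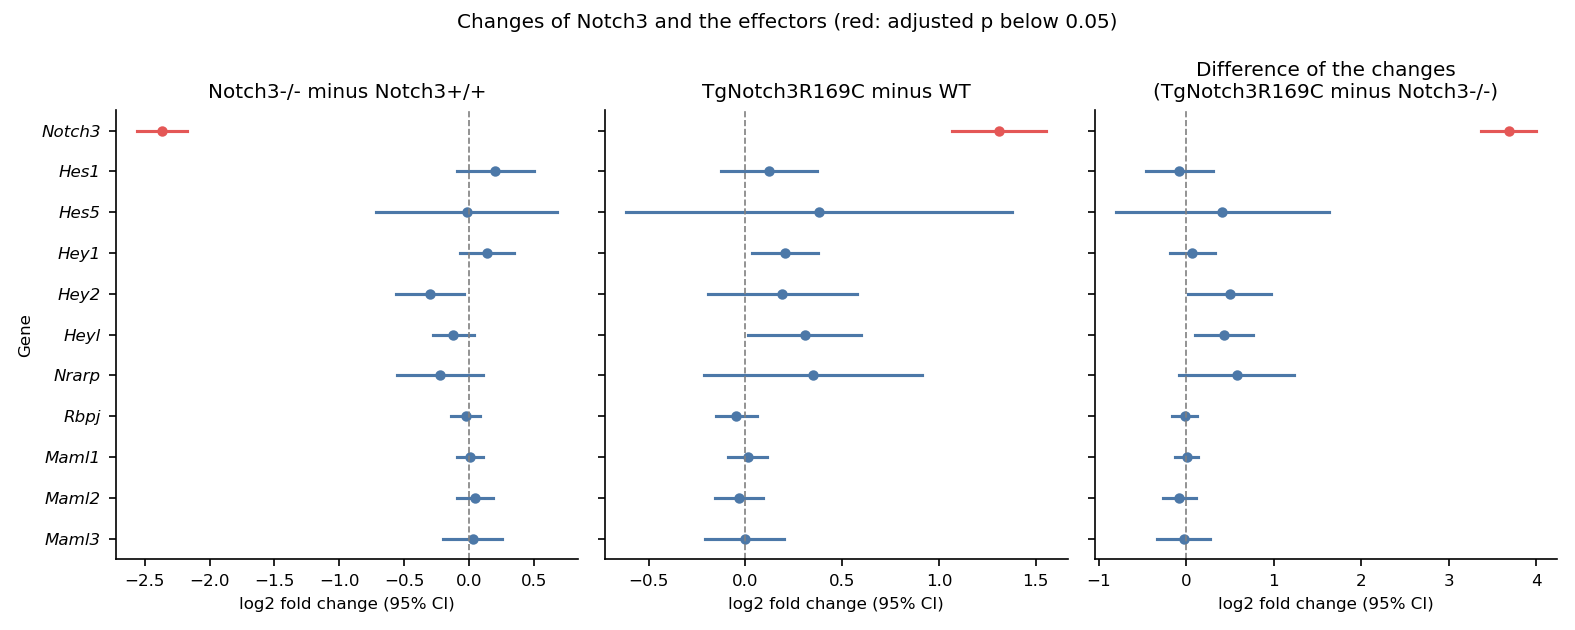
Log2 fold change (x axis, with 95% CI) of Notch3 and each effector in Notch3-/- mice, in TgNotch3R169C mice, and as the difference between those changes; red marks an edgeR adjusted p below 0.05. Notch3 alone is red, at −2.37, 1.31, and 3.68, and Hes5 has the widest interval in each panel.

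In TgNotch3R169C mice, where Notch3 counts were 2.48-fold higher, 0 of 10 effectors were called by edgeR, against 0.113% of the 17731 genes tested. At an unadjusted p below 0.05, 2 of 10 passed, against 7.27% of all genes, and DESeq2 called 0 of 10, against 0.33%. The 2 genes were Heyl and Hey1. The count was 1 in 9 of 16 fits that left out 1 mouse and with the neuronal or choroid plexus level as a covariate, and 0 with the astrocyte level as a covariate or without TgNotch3R169C mice 2 and 5, a choice made after their values were seen. Heyl ranged from 31.1 to 67.1 CPM (median 48.8) in WT mice and from 45.3 to 79.2 CPM (median 61.9) in TgNotch3R169C mice. Of the TgNotch3R169C mice, 6 lay above the mean of the controls and 1 above the highest control. The log2 fold change was 0.31 (SE 0.138, unadjusted p = 0.0404, edgeR adjusted p = 0.679), or 1.24-fold with a 95% CI from 1.01 to 1.51. Mice 2 and 5 were the highest of the TgNotch3R169C mice in Heyl (79.2 and 66.9 CPM), and without them it gave 0.20 (unadjusted p = 0.172).

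Hey1 ranged from 17.2 to 22.6 CPM (median 19.6) in WT mice and from 19.0 to 27.0 CPM (median 22.4) in TgNotch3R169C mice. Here 7 of 8 mutants lay above the mean of the controls and 2 above the highest control. The log2 fold change was 0.20 (SE 0.0799, unadjusted p = 0.0205, edgeR adjusted p = 0.637), or 1.15-fold with a 95% CI from 1.03 to 1.30, and it gave 0.17 without mice 2 and 5 (unadjusted p = 0.069). Hes1, at 27.4 to 46.0 CPM (median 30.9) in WT mice and 26.6 to 45.4 CPM (median 36.3) in TgNotch3R169C mice, gave 0.12 (SE 0.117, edgeR adjusted p = 0.817). The effectors as a list had a median log2 fold change of 0.16, with 7 above 0 and 3 below, beside −0.0074 for all genes. Without mice 2 and 5 the median was −0.037, with 4 above 0 and 6 below. These mice were picked after their high values were seen, and no WT mouse was left out. A lower median was therefore set in advance, and this fit cannot decide what the lean rests on. Markers of several cell types leaned 1 way in the same comparison, although 0 of these were called. Smooth muscle (8 of 8, median −0.23), choroid plexus (7 of 7, median −1.06), and oligodendrocyte markers (6 of 7, median −0.075) lay below 0. Astrocyte (7 of 7, median 0.17), neuronal (8 of 8, median 0.31), and endothelial markers (7 of 8, median 0.10) lay above 0. Arterial endothelial markers were a separate list, with 5 of 8 above 0 (median 0.090). In that list 1 gene, Gja5, was called (log2 fold change 0.60, edgeR adjusted p = 0.0189, DESeq2 adjusted p = 1.27e-05). The part of all these cells in the effector values was not tested.

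In TgNotch3R169C mice, the same 2 libraries were highest in Hes5, Nrarp, and Hey2. Hes5 reached 12.9 and 14.1 CPM in TgNotch3R169C mice 2 and 5, against 1.68 to 5.44 CPM in the other 6 and 2.28 to 7.14 CPM in WT mice. Nrarp reached 30.0 and 30.6 CPM in the same mice, against 10.4 to 13.3 CPM in the other 6 and 8.62 to 22.2 CPM in WT mice. Hey2 reached 42.8 and 49.9 CPM, against 23.0 to 33.8 CPM in the other 6 and 17.6 to 37.7 CPM in WT mice. For each of these 3 genes, mice 2 and 5 alone exceeded the highest WT mouse. Medians in TgNotch3R169C and WT mice were 2.69 and 3.52 CPM for Hes5 and 26.5 and 26.7 CPM for Hey2. For Nrarp the median was higher in TgNotch3R169C mice, at 13.0 against 11.6 CPM.

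With all 8 mutants, the log2 fold changes were 0.38 for Hes5 (SE 0.471, edgeR adjusted p = 0.868), 0.35 for Nrarp (SE 0.267, edgeR adjusted p = 0.777), and 0.19 for Hey2 (SE 0.182, edgeR adjusted p = 0.819). Without mice 2 and 5 they were −0.58 for Hes5, −0.10 for Nrarp, and −0.061 for Hey2. The highest mutants were left out and no WT mouse was, so lower values were set in advance. Neuronal markers summed to 811 CPM in mouse 2 and 1107 CPM in mouse 5, against 386 to 787 CPM in the other 6, and Hes5 gave −0.30 with the neuronal and −0.28 with the astrocyte level as a covariate. Notch3+/+ mouse 4, the highest control in Hes5 (11.6 CPM), Nrarp (24.9 CPM), and Hey2 (40.05 CPM), had a neuronal sum of 298 CPM in a group ranging from 279 to 1049 CPM, and the highest smooth muscle sum of any mouse (4322 CPM). TgNotch3R169C mouse 5 had the lowest smooth muscle sum (1093 CPM). Astrocyte markers in mice 2 and 5 summed to 3016 and 2974 CPM, within the 2466 to 3250 CPM of their group. Choroid plexus markers summed to 551 CPM in mouse 2 and 21028 CPM in mouse 5, against 534 to 15377 CPM in the other 6. The part of these cells in the levels of Hes5, Nrarp, and Hey2 was not tested.

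The interaction of both mutants compared the changes directly. It gave 3.68 on the log2 scale for Notch3 (SE 0.154, edgeR adjusted p = 3.74e-17) and called 0 of 10 effectors, against 0.35% of the 18555 genes tested. At an unadjusted p below 0.05, 2 of 10 passed, against 8.62% of all genes, and DESeq2 called 0 of 10, against 0.715%. Heyl gave a difference of 0.43 (SE 0.163, unadjusted p = 0.0124, edgeR adjusted p = 0.406) and Hey2 one of 0.50 (SE 0.231, unadjusted p = 0.0394, edgeR adjusted p = 0.555). Without TgNotch3R169C mice 2 and 5 these were 0.33 and 0.25, and 1 of 10 passed at an unadjusted p below 0.05. Nrarp gave 0.58 (SE 0.321, edgeR adjusted p = 0.618), and 0.13 without these mice. Only mutants that were highest in these genes were left out, so the lower values were set in advance. The Rbpj and Maml1 differences were −0.018 and 0.00539, with 95% CIs from 0.892- to 1.09-fold and from 0.914- to 1.102-fold. Of the 11 target genes of the study, 7 passed the same contrast. They were named by the study as genes that depend on Notch3, so this is not independent evidence. In TgNotch3R169C mice 0 of 11 were called by edgeR or DESeq2. At an unadjusted p below 0.05, 5 of 11 passed, all 5 below 0, against 7.27% of all genes.

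The 2 control groups differed in age and line, and 7.92% of 17643 genes were called between them by edgeR. Of the effectors, 0 of 10 were called, 2 of 10 had an unadjusted p below 0.05, against 24.2% of all genes, and DESeq2 called 1 of 10, against 11% of all genes. That gene was Rbpj, with a log2 difference of −0.14 in WT mice of 12 months (SE 0.0464, edgeR adjusted p = 0.0679, DESeq2 adjusted p = 0.0373). All 8 WT mice lay below the mean of the Notch3+/+ mice and 6 lay below their lowest value. Heyl was the other, at −0.32 (SE 0.121, edgeR adjusted p = 0.108), and leaving out WT mouse 1 gave −0.41 with an edgeR adjusted p of 0.0279. In this comparison all 8 smooth muscle markers were called lower (median −0.81), and with their level as a covariate Heyl turned to 0.35. Their sums did not overlap, at 1357 to 2074 CPM in WT and 2439 to 4322 CPM in Notch3+/+ mice. This covariate can therefore hardly be told apart from group. Choroid plexus and oligodendrocyte markers moved too, with 5 of 7 (median 3.94) and 3 of 7 (median 0.65) called higher in WT mice. With the choroid plexus level as a covariate, Heyl gave −0.16 and Rbpj −0.16, and the genes called went from 1398 to 309. The part of these cells was not tested.

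Placing the 4 groups in order, Rbpj decreased from Notch3+/+ (33.6 ± 2.32 CPM) through Notch3-/- (33.2 ± 2.58 CPM) and WT (30.5 ± 1.54 CPM) to TgNotch3R169C (29.5 ± 2.23 CPM). Of the 60 pairs of groups formed by the 10 effectors, 1 was called in an edgeR fit of all 4 groups, which was Rbpj in TgNotch3R169C against Notch3+/+ mice (log2 difference −0.18, edgeR adjusted p = 0.0242). In that pair 7.51% of all 18555 genes were called, and over the 6 pairs of groups this share ran from 0.113% to 8.21%. These groups differ in age, line, and genotype, which cannot be told apart. For none of the 10 effectors were neighbors in the order of levels separated by this test, and the share for all genes was not computed. For Notch3, 5 of 6 pairs were called.

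Effectors were next set against Notch3 mouse by mouse. Within groups, 40 relations were computed (10 effectors in 4 groups of 8 mice), and 0 passed a Benjamini-Hochberg adjusted p of 0.05 by exact permutation of Pearson's r or of Spearman's rho. At an unadjusted p below 0.05, 5 passed by Pearson's r and 2 by Spearman's rho. The highest r was that of Hey2 in Notch3-/- mice (r = 0.869, exact permutation p = 0.004886, adjusted p = 0.195; rho = 0.857, exact permutation p = 0.01071, adjusted p = 0.429). Without the 2 mice farthest from the median of Notch3, it was 0.627. Notch3 counts in Notch3-/- mice (13.6 to 18.7 CPM) are reads that remain of an inactivated gene, so this r does not measure a relation with receptor level. Heyl in WT mice gave r = 0.775 (exact permutation p = 0.02455, adjusted p = 0.383; rho = 0.524, exact permutation p = 0.1966, adjusted p = 0.654), and r = 0.659 without the 2 farthest mice. In TgNotch3R169C mice, r with Notch3 was −0.15 for Heyl, 0.15 for Hey2, and 0.34 for Hey1. Over the 40 relations the median r was 0.215, and 26 were above 0. The median was 0.125 without the 2 farthest mice, where 0 passed at an unadjusted p below 0.05. Given the smooth muscle level it was 0.101, where 5 passed by Pearson's r and 1 by Spearman's rho. The same values were not computed for all genes, so they show nothing particular to the effectors.

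**Figure D3:**
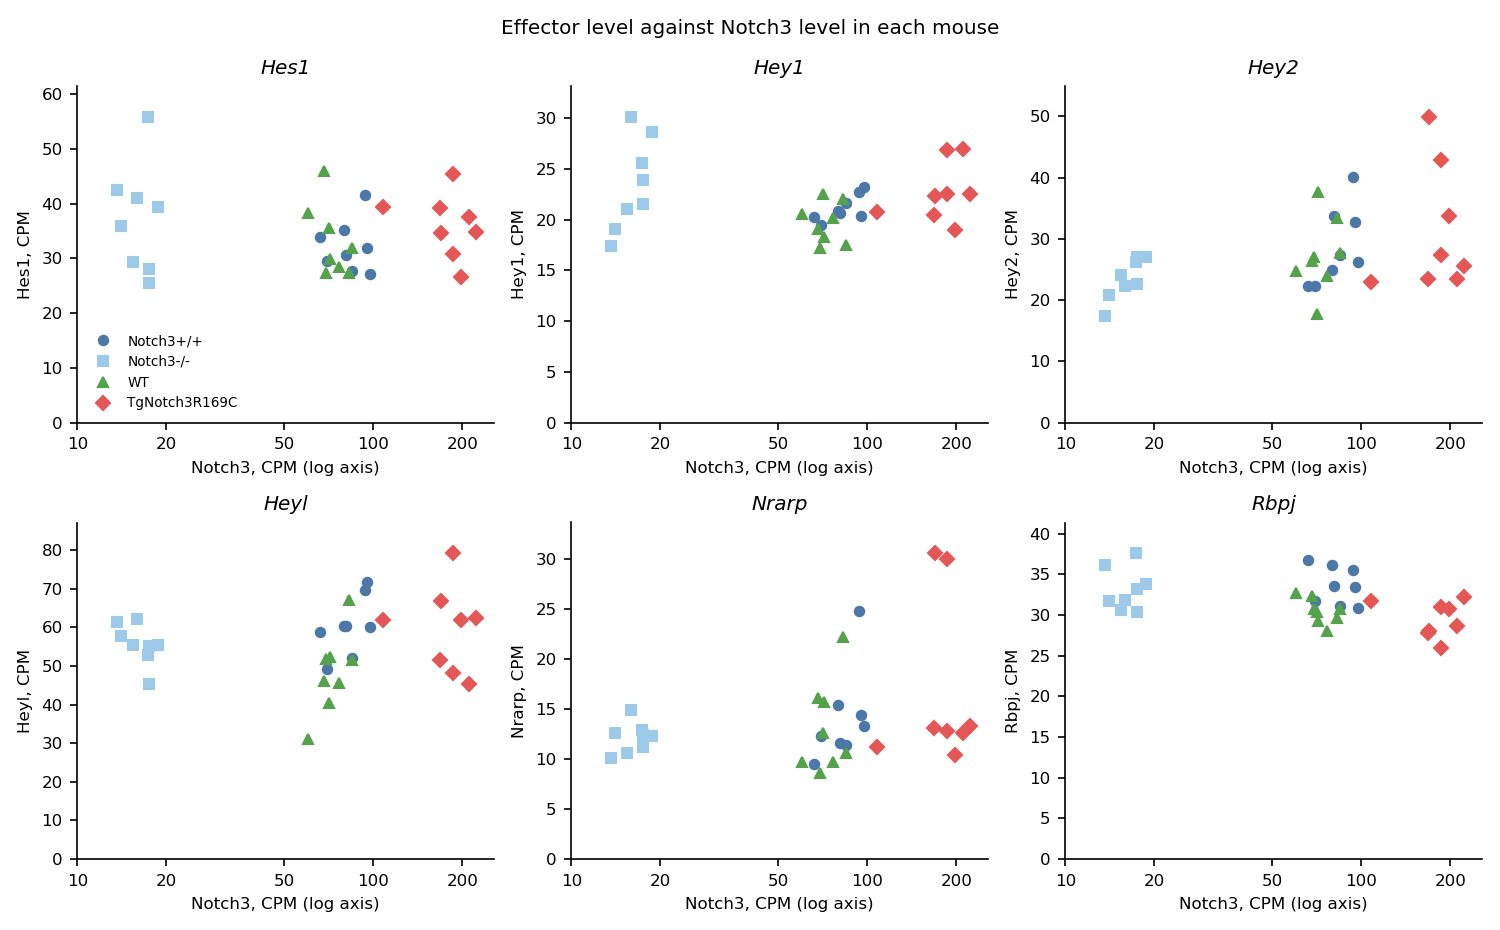
Level of 6 effectors (y axis, CPM) against Notch3 (x axis, CPM, log scale) in each of 32 mice, colored by group. Notch3 spans 13.6 to 223 CPM, and in each panel the effector levels of Notch3-/- mice, at the left, and TgNotch3R169C mice, at the right, overlap with those of the controls between them.

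The effectors were also set against each other among mice of the same group. Pearson's r of log2 CPM, less the group mean, was computed for all 45 pairs of effectors over 32 mice, with 100000 permutations within groups, after the levels had been seen. At an adjusted p below 0.05, 7 pairs passed by Pearson's r, all 7 above 0, and 3 passed by Spearman's rho too. The lowest r of these 7 was 0.519, and 3.34% of all pairs of the 18555 genes reached it. Hes5 and Nrarp were the closest pair (r = 0.837, permutation p = 2e-05, adjusted p = 0.0009; rho = 0.660, permutation p = 0.00035, adjusted p = 0.00945), and 0.0897% of all gene pairs reached its r. Leaving out the 2 farthest mice gave r = 0.751, and leaving out TgNotch3R169C mice 2 and 5 gave r = 0.745. By group, r was 0.881 in Notch3+/+, 0.910 in WT, and 0.942 in TgNotch3R169C mice, but −0.38 in Notch3-/- mice. Whether r differed between the groups was not tested.

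Hey2 joined that pair, with r = 0.660 to Nrarp (permutation p = 0.00066, adjusted p = 0.0099; rho = 0.518, permutation p = 0.00536, adjusted p = 0.0603) and r = 0.634 to Hes5 (permutation p = 0.00124, adjusted p = 0.01395; rho = 0.473, permutation p = 0.01401, adjusted p = 0.105). Without the 2 farthest mice these were 0.637 and 0.469, and without TgNotch3R169C mice 2 and 5 they were 0.505 and 0.468. In Notch3-/- mice they were 0.229 and −0.12. Heyl correlated with Nrarp (r = 0.559, permutation adjusted p = 0.0321) and with Hey2 (r = 0.519, permutation adjusted p = 0.0446), and neither passed by rho (0.440 and 0.499, permutation adjusted p = 0.120 and 0.0671). Heyl and Hey2 gave r = −0.72 in Notch3-/- mice and 0.616 to 0.717 in the other 3 groups. Hes1 went with Rbpj instead (r = 0.639, permutation p = 0.00015, adjusted p = 0.003375; rho = 0.616, permutation p = 0.00042, adjusted p = 0.00945), and r was 0.555 without the 2 farthest mice. Maml2 and Maml3 formed the third pair (r = 0.537, permutation p = 0.00279, adjusted p = 0.0251; rho = 0.566, permutation p = 0.00129, adjusted p = 0.0194; r = 0.464 without the 2 farthest mice). All values of a mouse come from 1 library and share its depth and cell makeup.

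**Figure D4:**
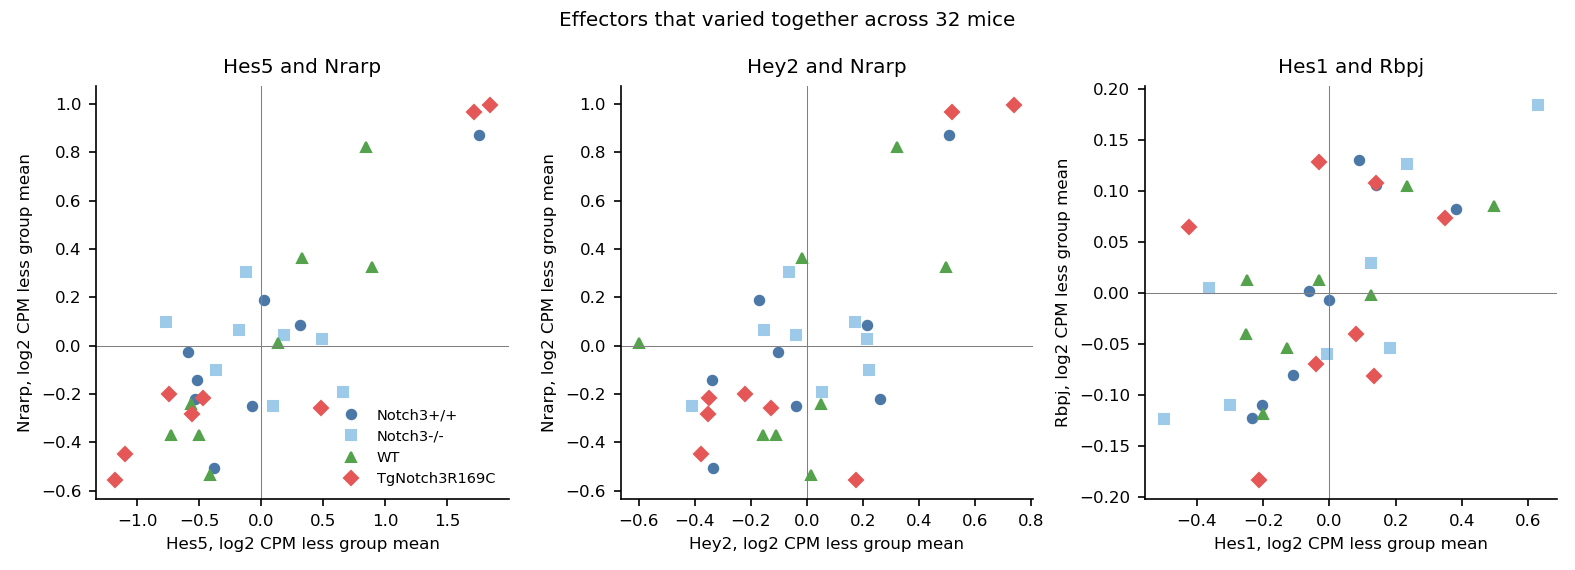
Levels of effector pairs in 32 mice, as log2 CPM less the mean of the mouse's group, colored by group: Hes5 and Nrarp (r = 0.837), Hey2 and Nrarp (r = 0.660), and Hes1 and Rbpj (r = 0.639). In the panels with Nrarp, TgNotch3R169C mice 2 and 5 and Notch3+/+ mouse 4 lie at the top right.

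The promoters of Hes5, Hey2, and Nrarp are shown because these genes correlated across mice. Each window runs from 250 bases before to 50 bases after the annotated start in RefSeq (GRCm38.p6), written 5′ to 3′ on the strand of the gene. Capitals mark the Rbpj core letters TGGGAA, or TTCCCA on the other strand, and in Nrarp the E-box CACGTG, a palindrome that Hes and Hey proteins can bind. Hes5 lies at chr4:154960673-154960972 on the plus strand, Hey2 at chr10:30842734-30843033 on the minus strand, and Nrarp at chr2:25180508-25180807 on the plus strand.
Hes5: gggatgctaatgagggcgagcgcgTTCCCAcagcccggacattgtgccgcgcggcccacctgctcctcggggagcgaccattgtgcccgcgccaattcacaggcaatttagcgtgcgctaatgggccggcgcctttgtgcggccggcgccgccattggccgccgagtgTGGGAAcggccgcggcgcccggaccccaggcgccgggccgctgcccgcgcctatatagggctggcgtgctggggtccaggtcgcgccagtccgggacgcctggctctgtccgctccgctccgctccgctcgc
Hey2: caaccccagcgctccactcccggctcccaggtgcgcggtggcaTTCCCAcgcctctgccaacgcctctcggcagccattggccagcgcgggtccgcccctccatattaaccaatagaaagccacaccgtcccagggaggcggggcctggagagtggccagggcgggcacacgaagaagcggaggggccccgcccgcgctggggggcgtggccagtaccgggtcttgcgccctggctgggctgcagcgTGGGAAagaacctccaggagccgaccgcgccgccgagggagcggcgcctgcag
Nrarp: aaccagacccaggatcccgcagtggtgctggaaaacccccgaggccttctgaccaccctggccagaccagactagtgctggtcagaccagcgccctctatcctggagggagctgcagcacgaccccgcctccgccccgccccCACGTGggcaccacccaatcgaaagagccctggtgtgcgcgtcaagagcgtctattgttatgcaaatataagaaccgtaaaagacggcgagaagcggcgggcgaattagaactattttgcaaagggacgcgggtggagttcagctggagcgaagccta
Hes5 and Hey2 each held 2 core motifs in opposite orientations, starting at bases 25 and 169 of the Hes5 window and at bases 44 and 248 of the Hey2 window. In both genes the 2 matches also read GTGGGAA on their strand, and in Hey2 CGTGGGAA. The core was found on either strand in 25.6% of 32851 promoters of the same length, GTGGGAA, which contains it, in 6.38%, and CGTGGGAA, which contains both, in 0.734%. The Nrarp window held no core but 1 E-box, a motif in 7.15% of promoters. The N-box CACNAG, another site described for Hes proteins, was in 42.5% of promoters and in windows of Nrarp and Maml2. Promoters of 7 of the 10 effectors were found, 9 windows in all, and the core was in 6 of them, belonging to Hes5, Hey2, Rbpj, Maml2, and Maml3. The 2 Rbpj windows overlap, and the core at base 186 of the first is the same site as that at base 46 of the second. Counted by gene, 5 of 7 held the core, against 28.3% of 27025 genes. These matches describe letters in a window only.

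The genes most alike each effector, by Pearson's r of log2 CPM less the group mean over 32 libraries among 18554 other genes, differed between effectors. For Hes5 they were Tspan15 (r = 0.930), Erbb3, Cdh24, Psat1, and Brinp3 (r = 0.860). For Nrarp they were Cdh24 (r = 0.877), Clca3a1, Mcf2l, Hes5, and BC049352 (r = 0.828), and for Hey2 they were Smtnl2 (r = 0.776), Clca3a1, BC049352, Itga7, and Hpdl (r = 0.740). For Hes1 they were C5ar2 (r = 0.752), Id3, Id1, Cbfb, and Csk (r = 0.714), for Hey1 Dvl1 (r = 0.730), Klf4, Arid5a, Tuba1a, and S1pr1 (r = 0.698), and for Heyl 4931406C07Rik (r = 0.796), A530076I17Rik, Tmem198b, BC106179, and BB218582 (r = 0.772). For Rbpj they were Fundc2 (r = 0.788), Dennd6a, Rest, Sptssa, and Lims1 (r = 0.749), for Maml1 Esco1 (r = 0.788), Slc35a4, Pcsk7, Zfp592, and Ubn1 (r = 0.739), for Maml2 Ttc7 (r = 0.781), Ccbe1, Slc25a10, Dact1, and Inca1 (r = 0.679), and for Maml3 2810407A14Rik (r = 0.729), Nr3c2, Asap1, Usp28, and Btrc (r = 0.687). Among the 50 genes most alike each of the 10 effectors, 0 were in a marker list of a cell type. The lists hold only 4 to 8 genes each, so this count says little about cell makeup. The median r of an effector with a list ran from −0.43 (Rbpj with neuronal markers) to 0.40 (Maml1 with endothelial markers). These are descriptions without a test.

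The rest of the Notch pathway, a list of 70 other genes, also held no gene called by edgeR in either mutant. Of all genes tested, edgeR called 0.649% in Notch3-/- and 0.113% in TgNotch3R169C mice. In Notch3-/- mice, 0 of 65 genes tested were called by edgeR or DESeq2, and 4 passed at an unadjusted p below 0.05, or 6.15% against 7.69% of all genes. Each of the 4 lay above 0, and the median over the list was 0.012 on the log2 scale. The 4 were the ligand Jag2 (log2 fold change 0.26, edgeR adjusted p = 0.214), the fringe glycosyltransferase Lfng (0.28, edgeR adjusted p = 0.32), the ligand-trafficking ligase Mib2 (0.084, edgeR adjusted p = 0.497), and the Deltex ligase Dtx3l (0.20, edgeR adjusted p = 0.494). In the receptor and effector-cofactor lists, the smallest p-values belonged to Notch1 (0.071) and Notch2 (−0.035), to the γ-secretase subunits Psenen (−0.17) and Ncstn (−0.052), to Hes7 (0.29) and Bhlhe41 (0.086), and to the co-repressors Tle2 (0.13) and Kdm5a (−0.045).

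In TgNotch3R169C mice, 0 of 66 pathway genes tested were called by edgeR and 1 by DESeq2, and 3 passed at an unadjusted p below 0.05, or 4.55% against 7.27% of all genes (median log2 fold change 0.00865). Notch4, the receptor expressed mainly in endothelium, gave 0.26 (SE 0.0617, edgeR adjusted p = 0.201, DESeq2 adjusted p = 0.034), Notch2 gave −0.11 (edgeR adjusted p = 0.669), and Notch1, the last of the 3, gave 0.14 (edgeR adjusted p = 0.679). All 7 ligands tested lay above 0, with Dll4 at 0.21 and Dlk2 at 0.55, and 0 of 7 had an unadjusted p below 0.05. The smallest p-values of the other lists belonged to Neurl1a (0.38) and Neurl1b (0.27), Furin (−0.060) and Ncstn (−0.064), Fbxw7 (0.14) and Cbl (0.078), Hes6 (−0.12) and Bhlhe41 (−0.20), and Kat2b (−0.10) and L3mbtl3 (−0.37), with edgeR adjusted p from 0.679 to 0.802. The interaction called 0 of 66 with edgeR or DESeq2, and 4 had an unadjusted p below 0.05, or 6.06% against 8.62% of all genes. Between the control groups, the deacetylase Hdac2 was called lower at 12 months (−0.20, SE 0.0297, edgeR adjusted p = 0.0012), the only 1 of 66 called by edgeR, where 7.92% of all genes were called, while DESeq2 called Bhlhe41, Cbl, and Adam17 as well, 4 in all.

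**Figure D5:**
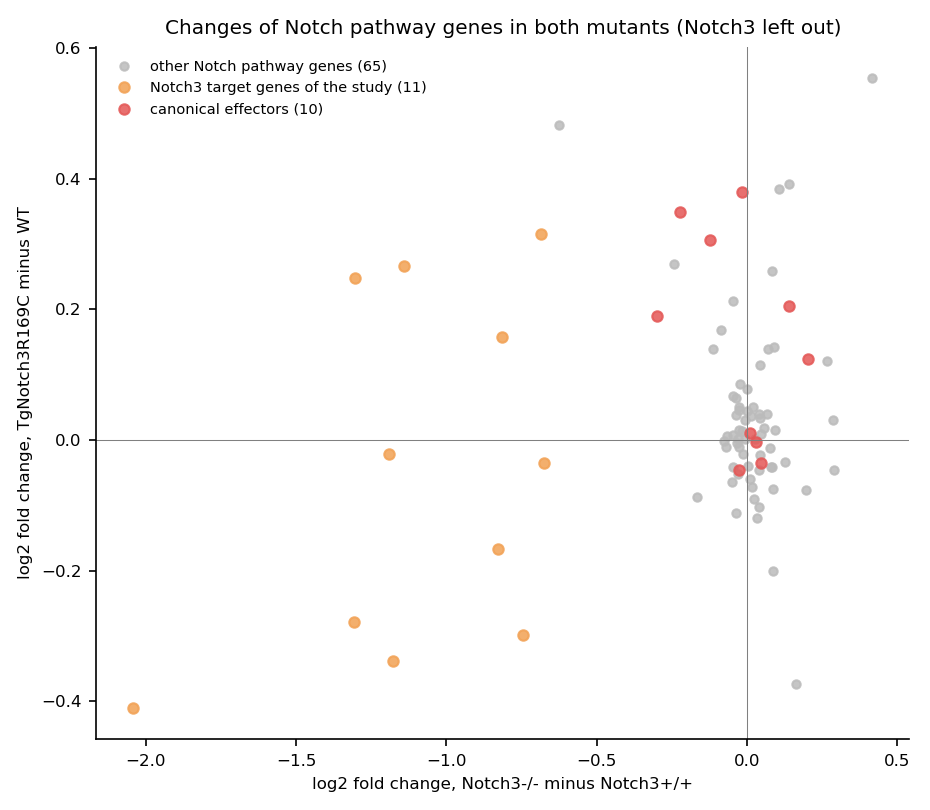
Log2 fold change in Notch3-/- mice (x axis) and in TgNotch3R169C mice (y axis) of the 10 effectors, 65 other genes of the Notch pathway, and the 11 target genes of the study; each point is a gene, and Notch3 is left out. The effectors lie between −0.30 and 0.20 on the x axis, while all 11 target genes lie below −0.67.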

How the data were processed

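Brain arteries of 32 mice were sequenced as stranded, poly(A)-selected mRNA libraries. The deposited values are whole-number counts of reads on Ensembl genes, which the authors left without normalization. The submitters' processing notes name bcl2fastq 2.20.0.422, cutadapt 1.10, Bowtie2 2.2.8, STAR 2.5.3a, HTSeq 0.6.1p1, and build mm39, without roles; the annotation release is not given in the sources used here. Per the labels, groups were set by genotype and age. Identifiers were given symbols from a table of mouse gene names (52081 of 55357; 1 listed gene was not matched, and 16744 genes had no counts). Differences between replicates exceeded sampling noise in all 112 pairs within groups (chi-square per gene 10.9 to 148), so no library was merged.

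Counts were tested in R 4.3.3 with edgeR 4.0.16 (filterByExpr, TMM, and the quasi-likelihood functions glmQLFit and glmQLFTest), fitting the 2 groups of a comparison, or all 4 groups for the interaction and for pairs of groups. P-values were adjusted over all genes by Benjamini-Hochberg and called below 0.05. CIs are 95%, from the same fit, and cover counting error and variation between mice. DESeq2 1.42.0, limma 3.58.1, other normalizations and filters, covariates (smooth muscle, neuronal, astrocyte, and choroid plexus levels, Xist), the replicate number as a block, and leaving out each mouse were alternatives. The fits were tested on simulated data. Correlations used log2 CPM with a prior count of 2. Exon lengths were those of GENCODE vM21, and promoters those of RefSeq on GRCm38.p6, another build than that of the counts, so coordinates are given for promoter windows only, on that build.

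The effectors and all gene lists were chosen with earlier results of these data known. Named genes were the 10 effectors and Notch3, any other pathway gene called, or else the 2 of each list with the smallest p in a mutant's comparison, and the 5 genes most alike each effector.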

Additional observations from a re-analysis of the deposited data

Results flagged for a closer look

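Of 44 sets of 8 mice (11 genes in 4 groups), 5 held a mouse whose gap to its nearest neighbor passed Dixon's 95% critical value, where chance gives 2.2, about 1 in 20. Hes5 in Notch3+/+ mouse 4 was 11.6 CPM, against 4.21 CPM in the next mouse, a gap of 0.787 of the range. Nrarp in the same mouse was 24.9 CPM, against 15.4 CPM in the next, a gap of 0.614. Maml1 in WT mouse 7 was 41.3 CPM, against 38.0 CPM in the next (gap 0.743), and Maml2 in Notch3+/+ mouse 6 was 40.2 CPM, against 34.3 CPM in the next (gap 0.549). Notch3 in TgNotch3R169C mouse 3 was 108 CPM, against 169 CPM in the next (gap 0.532), and that mouse still lay above every WT mouse. The difference between the changes of Notch3 in the 2 mutants, 3.68 on the log2 scale (edgeR adjusted p = 3.74e-17), was tested as an interaction.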

How the results depend on the processing

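No effector was called in either mutant or in the interaction under any alternative run, and no log2 fold change of an effector that changed sign had been called. Among all genes, 16 of 17714 to 280 of 21859 were called in these runs in Notch3-/- mice. The counts were 6 of 17731 to 74 of 22405 in TgNotch3R169C mice and 49 of 38613 to 153 of 21394 in the interaction. At such shares, 0 of 10 shows nothing particular to the effectors. Between the control groups the count of 0 effectors called became 1 with DESeq2, with Xist as a covariate, or with a threshold of 0.1, and ranged from 0 to 1 when 1 mouse was left out. Rbpj was the effector called with DESeq2 (−0.15) and with Xist (−0.14).

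The labels do not say whether replicate numbers pair the mice. Correlations of mice with the same number ran from −0.09 to 0.28, −0.40 to 0.51, and −0.17 to 0.28 in the 3 comparisons. They exceeded 0.1 in 5, 4, and 5 of 8 pairs, and were not compared with those of mice with different numbers. With the replicate block, 0 effectors were called in each of the 4 comparisons, Hes5 in Notch3-/- mice turned to 0.16, and genes called went from 20 to 6 in TgNotch3R169C mice and from 1398 to 715 between controls.

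In Notch3-/- mice, the smooth muscle covariate gave Hes5 1.18, Hey2 0.14, Heyl 0.091, Nrarp 0.34, Rbpj 0.094, and Maml3 −0.22. Hes5 was also above 0 with limma voom (0.17) and with neuronal (0.017), choroid plexus (0.00487), and Xist (0.015) covariates. In TgNotch3R169C mice, Hes5 was −0.30 and −0.28 with neuronal and astrocyte covariates, and without mice 2 and 5 Hes5 was −0.58, Hey2 −0.061, and Nrarp −0.099. Maml3, near 0, turned positive with RLE normalization (0.00265), at least 10 counts in every library (0.00223), DESeq2 (0.00358), limma voom (0.00781), and Xist (0.00785). In the interaction, Hes1 was 0.00548 with the astrocyte covariate, Hes5 was −0.091 with limma voom and −0.56 without TgNotch3R169C mice 2 and 5, Rbpj was 0.014 and 0.022 with neuronal and astrocyte covariates, Maml1 was −0.00474 without a filter and −0.012 with the smooth muscle covariate, and Maml3 was 0.089 with the latter. Between controls, the smooth muscle covariate gave Notch3 0.16, Hey2 0.59, Heyl 0.35, and Nrarp 0.84, and the choroid plexus covariate gave Hes1 −0.025, Hey2 0.085, and Nrarp 0.16. The smooth muscle sums of the control groups did not overlap, so that covariate can hardly be told apart from group. Those of Notch3-/- and Notch3+/+ mice overlapped little, so there it is hard to tell apart from genotype. The cause of the sign changes was not tested.

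Leaving out 1 mouse at a time moved Hes5 from −0.12 to 0.44, Maml1 from −0.00721 to 0.038, and Maml3 from −0.00849 to 0.0999 in Notch3-/- mice. The ranges were −0.014 to 0.033 for Maml1 and −0.039 to 0.050 for Maml3 in TgNotch3R169C mice. In the interaction they were −0.15 to 0.028 for Hes1, −0.055 to 0.56 for Hes5, −0.040 to 0.00669 for Rbpj, −0.021 to 0.034 for Maml1, and −0.096 to 0.021 for Maml3. Between controls they were −0.038 to 0.099 for Hes1, −0.088 to 0.51 for Hes5, −0.16 to 0.00689 for Hey2, and −0.25 to 0.061 for Nrarp.

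Counts of all genes called went from 115 to 280 with DESeq2, 174 with all 4 groups in 1 fit, and 16 with the smooth muscle covariate in Notch3-/- mice. They went from 20 to 74 with DESeq2, 8 with the neuronal and 6 with the astrocyte covariate, and 11 to 13 without 1 of 4 mice in TgNotch3R169C mice, from 65 to 153 with DESeq2 in the interaction, and from 1398 to 2365 with DESeq2, 0 with the smooth muscle covariate, 309 with the choroid plexus covariate, and 895 without Notch3+/+ mouse 7 between controls. None of the 40 relations with Notch3 passed adjustment with RLE normalization, without the 2 farthest mice, or given the smooth muscle level.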
